A study of Mus musculus with 16 samples.

Results

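The genes described here are 7 genes of the epithelium that makes enamel and later seals the gum to the tooth, taken by symbol from the 55359 genes of the deposited count table. Of these, 2 are genes of tooth attachment (Odam and Amtn) and 5 are enamel-forming genes (Ambn, Amelx, Enam, Mmp20 and Klk4). RNA was sequenced from the periodontal ligament, which anchors the tooth root in its socket, of wild-type male C57BL/6J mice aged 9 weeks, in 16 libraries that form 4 groups of 4. The control group received no treatment. In the ligature group, silk was placed around the second upper left molar to bring about periodontitis. In the trauma group, composite resin raised the chewing face of that same molar, a model of traumatic occlusion. The ligature plus trauma group received both. The sources used here give neither how long the thread or resin stayed in place nor whether each library came from 1 mouse, so p-values measure the spread between libraries, which may be partly technical.

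The identifiers are ENSMUSG00000009580.16 (Odam), ENSMUSG00000029282.4 (Amtn), ENSMUSG00000029288.12 (Ambn), ENSMUSG00000031354.17 (Amelx), ENSMUSG00000029286.13 (Enam), ENSMUSG00000018620.4 (Mmp20) and ENSMUSG00000006948.8 (Klk4). Odam, Amtn, Ambn and Enam lie on chromosome 5, Mmp20 on chromosome 9, Klk4 on chromosome 7 and Amelx on chromosome X. Counts were taken per gene, so exons and isoforms are not told apart.

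Enamel is laid down by ameloblasts, which first secrete a protein matrix (amelogenin from Amelx, ameloblastin from Ambn, enamelin from Enam). The proteases enamelysin (Mmp20) and kallikrein 4 (Klk4) then remove that matrix while the crystals grow. Odam and Amtn encode proteins that ameloblasts of the maturation stage and, after eruption, the junctional epithelium place in the basal lamina facing the tooth. The junctional epithelium is the collar of gum cells that is glued to enamel by hemidesmosomes. Except for the proteases, all of these genes belong to the secretory calcium-binding phosphoproteins (SCPP), a family that also holds bone and dentin matrix genes and the caseins of milk. Ameloblasts are lost from molars at eruption, but epithelial cell rests stay in the periodontal ligament.

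The promoters of the SCPP members are shown because a single stretch of letters recurs in all of them. RefSeq windows on build GRCm38.p6 (the counts were made on GRCm39) run from 250 bases before to 50 after each gene's start, 300 bases in all. All 7 members had a window. Capitals mark CCAATCA read on the opposite strand, a form of the CCAAT box.
Odam (chr5:87884760-87885059, plus strand): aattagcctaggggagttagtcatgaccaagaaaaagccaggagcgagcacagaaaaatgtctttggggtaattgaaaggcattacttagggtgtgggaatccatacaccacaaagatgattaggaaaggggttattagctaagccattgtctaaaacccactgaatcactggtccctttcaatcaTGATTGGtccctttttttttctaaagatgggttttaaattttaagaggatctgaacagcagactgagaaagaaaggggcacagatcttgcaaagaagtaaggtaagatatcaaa
Amtn (chr5:88375858-88376157, plus strand): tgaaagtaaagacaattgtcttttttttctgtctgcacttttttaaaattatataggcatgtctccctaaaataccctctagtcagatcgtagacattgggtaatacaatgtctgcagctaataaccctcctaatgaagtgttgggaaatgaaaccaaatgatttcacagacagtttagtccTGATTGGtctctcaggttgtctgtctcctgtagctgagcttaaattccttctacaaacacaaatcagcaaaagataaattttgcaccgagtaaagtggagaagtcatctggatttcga
Ambn (chr5:88455741-88456040, plus strand): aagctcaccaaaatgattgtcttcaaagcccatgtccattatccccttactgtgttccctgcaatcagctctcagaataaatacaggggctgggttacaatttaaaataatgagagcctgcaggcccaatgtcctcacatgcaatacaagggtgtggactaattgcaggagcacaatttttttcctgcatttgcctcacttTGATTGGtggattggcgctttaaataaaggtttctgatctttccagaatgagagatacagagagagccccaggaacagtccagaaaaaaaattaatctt
Amelx (chrX:169187160-169187459, minus strand): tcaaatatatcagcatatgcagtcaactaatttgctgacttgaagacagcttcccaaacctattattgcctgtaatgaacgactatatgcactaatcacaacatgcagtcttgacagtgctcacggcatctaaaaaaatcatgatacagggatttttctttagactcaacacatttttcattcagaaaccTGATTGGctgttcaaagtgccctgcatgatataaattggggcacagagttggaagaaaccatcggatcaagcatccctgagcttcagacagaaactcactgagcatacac
Enam (chr5:88487725-88488024, plus strand): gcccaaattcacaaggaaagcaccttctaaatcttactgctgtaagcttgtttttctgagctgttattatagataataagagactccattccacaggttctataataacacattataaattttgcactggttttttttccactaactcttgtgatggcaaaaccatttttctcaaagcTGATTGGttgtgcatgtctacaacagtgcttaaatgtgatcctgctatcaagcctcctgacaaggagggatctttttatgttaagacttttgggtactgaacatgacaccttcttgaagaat
CCAATCA, searched on both strands, was present in all 5 of these windows and in neither the Mmp20 nor the Klk4 window. It overlaps the shorter CCAAT, which 37.4% of the 32851 windows of all genes held on either strand, whereas CCAATCA was in 7.82% of them. In all 5 it lay on the opposite strand, between bases -72 and -43 from the start, and 0.801% of all windows held it on that strand within that stretch. The motif ran from -64 to -58 in Odam, from -68 to -62 in Amtn, from -49 to -43 in Ambn, from -60 to -54 in Amelx and from -72 to -66 in Enam. Among the other SCPP genes, all 4 bone and dentin genes with a window (Dmp1, Ibsp, Mepe and Spp1) held it and 0 of 4 caseins and salivary relatives did. Dmp1 and Spp1 each had a further window without it. Only in Ibsp, from -56 to -50, did it lie wholly within that stretch. It ran from -103 to -97 in Dmp1, from -23 to -17 in Mepe and from -48 to -42 in Spp1. The motif and the stretch were picked after the sequences had been read, so these shares are a description.

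Depth was 58458102 to 77468584 counts per library, and counting error was small for Odam, Amtn and Ambn. It was larger for Amelx, Enam and Klk4, and for Mmp20 in its lowest library, ligature 2, with 19 counts. Short transcripts took a larger part of the counts in ligature 2 and in libraries 2 and 3 with both treatments (rank correlation of level and transcript length across genes 0.148 to 0.191, against 0.248 to 0.372 in the other 13 libraries). Genes of the ligament itself were present in every library, with summed CPM (the count scaled to library depth) of 12060 to 48480 for 7 fibroblast genes including Postn. So were genes of other tissues. The summed CPM of 13 genes of basal epithelium was 1757 to 11970 in control, 5629 to 22550 in trauma, 2078 to 3280 in ligature and 1004 to 3397 in ligature plus trauma. Dspp, which encodes non-collagen dentin proteins made by odontoblasts, ranged from 60.5 to 2940 CPM. Amelx, the defining gene of secretory ameloblasts, had 92 counts in all. They came from 2 libraries, trauma 1 and ligature plus trauma 2, and the other 14 of 16 had 0, where 3 counts would be 0.0363 to 0.0592 CPM. In those 14 the label enamel organ goes against the level of Amelx, and the genes are described one by one.

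Levels per kilobase of the longest transcript put Odam far above the others. In control Odam stood at 2457 ± 1446 CPM per kilobase (mean ± SD, n = 4) and Ambn at 110.2 ± 74.3. Amtn followed at 16.9 ± 10.4 CPM per kilobase and Mmp20 at 6.02 ± 5.61. Klk4 was at 1.43 ± 0.749 and Enam at 0.355 ± 0.258 CPM per kilobase. Of the 7 members 6 passed edgeR's expression filter and were tested with all 20953 genes that did, and Amelx did not pass. Enam passed only through libraries without a ligature.

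Odam was the member that moved most clearly, and it fell with the ligature. Control libraries 1 to 4 were at 5713, 4223, 2218 and 1313 CPM. Trauma libraries 1 to 4 were at 1838, 8142, 7325 and 5296 CPM. Every library of these groups lay above every library with a ligature. Ligature libraries 1 to 4 were at 259.0, 558.9, 464.4 and 389.3 CPM. Ligature plus trauma libraries 1 to 4 were at 405.9, 479.2, 378.8 and 428.7 CPM. The levels with a ligature lay close together, whereas those without one spread over a several-fold range. In order of the mean, trauma was at 5650 ± 2809, control at 3367 ± 1981, ligature plus trauma at 423.1 ± 42.5 and ligature at 417.9 ± 126.6 CPM (SD, n = 4). Trauma and control did not differ beyond their spread, nor did the 2 groups with a ligature.

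**Figure D1:**
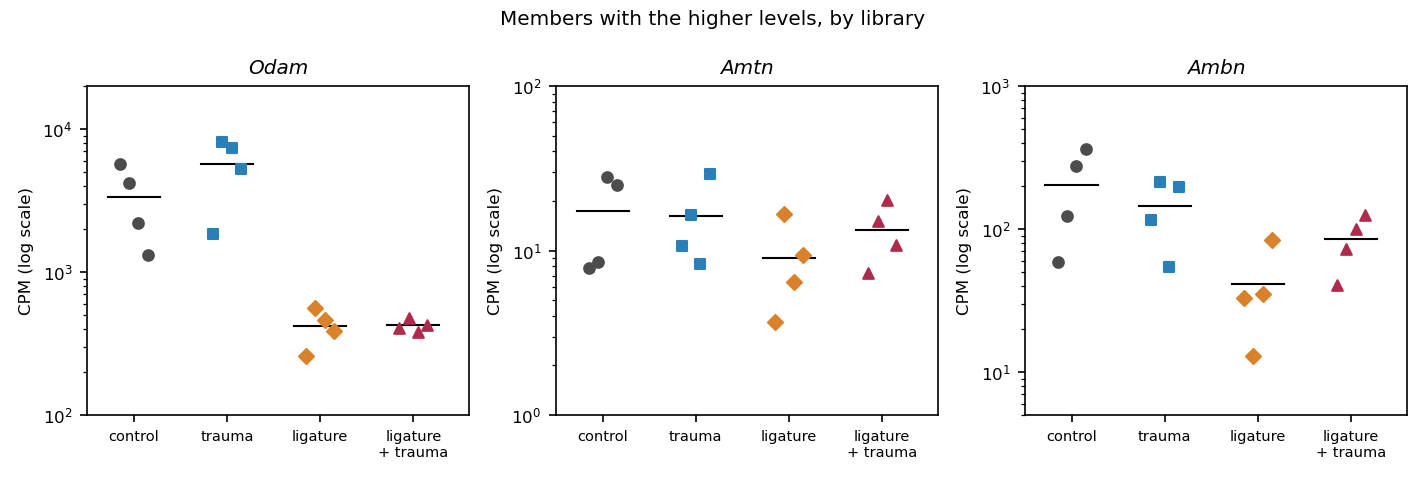
Level of Odam, Amtn and Ambn in each library, in CPM on log axes, by group, with 4 libraries each. Points are libraries and lines are group means. Odam libraries with a ligature lie between 259.0 and 558.9 CPM and those without between 1313 and 8142 CPM, while for Amtn and Ambn the groups overlap.

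The ligature group was set against untreated mice first, for the effect of ligation alone. Odam was 8.06-fold lower, a log2 fold change of -3.01 ± 0.48 (SE; edgeR quasi-likelihood adjusted p = 0.00126). Among all genes tested, 4.78% passed in the lower direction and 5.88% in the higher. The ranges of the groups did not overlap for Odam, as for 9.15% of tested genes in the lower direction. Ambn also fell, by 2.31 ± 0.62 on the log2 scale (edgeR adjusted p = 0.026), and no other member passed. The difference of Amtn was -0.94 ± 0.53, with a 95% interval from -2.07 to 0.19 (edgeR adjusted p = 0.274). Where the ligature was added to overloaded teeth, in ligature plus trauma against trauma, Odam fell by 3.74 ± 0.49 on the log2 scale (edgeR adjusted p = 0.0016), 13.4-fold, where 3.27% of all genes passed as lower and 7.31% were lower without overlap. No other member passed there. Ligature plus trauma against control, which shares the control libraries with the comparison above, gave -2.99 ± 0.48 for Odam (edgeR adjusted p = 0.00159), where 5.62% of genes passed as lower and 10.4% were lower without overlap. Over the 8 libraries with a ligature against the 8 without, the average ligature effect on Odam was -3.38 ± 0.34 (edgeR adjusted p = 1.66e-05), 10.4-fold, where 10.7% of genes passed as lower, 10.8% passed as higher and 2.05% were lower without overlap. In that average 4 of the 6 tested members passed, all as lower: Odam, Ambn, Enam and Klk4. Enam, at 0 in all 8 libraries with a ligature, entered the test only through those without one and is no support for a shared direction. Odam kept its call in each alternative tried, with a log2 value from -3.28 to -2.63 in ligature against control.

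No member passed for trauma. In trauma against control, where 1 gene in all passed (0.00477% of genes tested, and 1450 at an unadjusted p under 0.05), 0 of the 6 members did in edgeR, and 0 did in DESeq2 or voom. Odam was at 0.75 ± 0.44 on the log2 scale, with an interval from -0.19 to 1.69 (edgeR adjusted p = 0.764). Amtn was at -0.09 (interval -1.21 to 1.03) and Ambn at -0.49 (-1.74 to 0.76), and differences within those intervals cannot be told from none. Adding trauma to a ligature gave 0.02 for Odam (interval -0.92 to 0.95), where 0 genes passed in edgeR, 734 had an unadjusted p under 0.05 and DESeq2 called 31. The interaction, the effect of trauma with a ligature minus that without, was -0.73 ± 0.62 for Odam, 0.65 ± 0.75 for Amtn and 1.53 ± 0.84 for Ambn. None passed (edgeR adjusted p = 1 for each), as for all genes, of which 1032 had an unadjusted p under 0.05 and DESeq2 called 51.

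**Figure D2:**
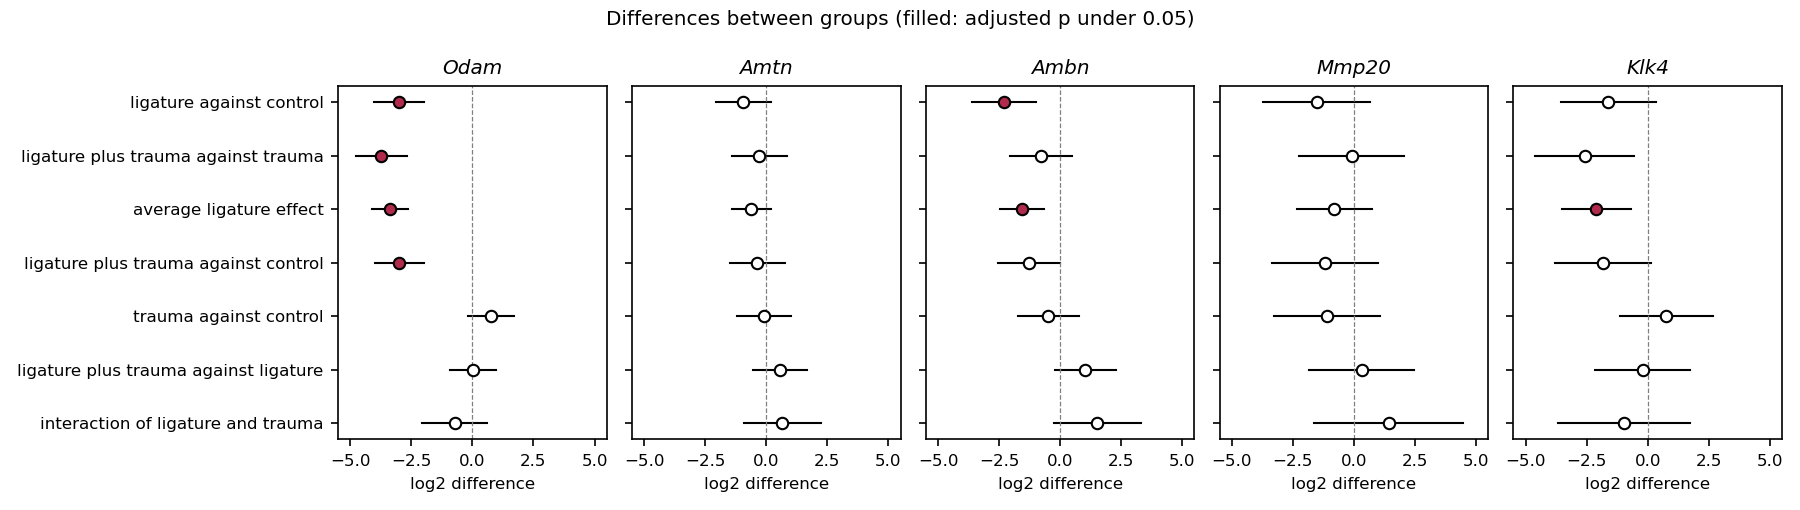
Log2 differences of 5 tested members in each comparison, with 95% intervals from edgeR's quasi-likelihood fit of 16 libraries. Filled points passed at an adjusted p under 0.05. Odam is filled in all 4 comparisons that set a ligature against none, and Amtn in none of the comparisons. Enam is left out because its libraries with a ligature were all at 0.

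The fall of Odam went with lower levels of epithelial genes in general. In a bulk sample fewer cells of a type and less RNA per cell cannot be told apart. In the average ligature effect 13 of 13 basal epithelium genes fell (median log2 fold change -2.13, against -0.05 for all tested genes), and 5 of 13 fell in ligature against control. Of all tested genes 10.7% passed as lower in that average and 4.78% in ligature against control. Krt5, a keratin of basal cells, was at 550.5 ± 392.4 CPM in control, 830.4 ± 407.2 in trauma, 203.5 ± 38.1 in ligature and 150.6 ± 102.6 in ligature plus trauma. Among 12 genes of the surface layers of oral epithelium, 11 fell in the average ligature effect, with a median log2 fold change of -5.24, a larger fall than that of Odam (-3.38). Odam was also set against the summed CPM of the basal list in the same library. It came to 47.7%, 46.2%, 64.2% and 74.7% of that sum in controls 1 to 4, and to 26.6%, 70.9%, 32.5% and 94.1% in trauma 1 to 4. In ligature 1 to 4 it was 7.90%, 19.8%, 22.1% and 18.7%, and in ligature plus trauma 1 to 4 it was 11.95%, 35.2%, 20.9% and 42.7%. Control and ligature did not overlap on this measure, but trauma and ligature plus trauma did. The log2 ratio averaged -2.33 ± 0.78 with a ligature and -0.92 ± 0.62 without (SD, n = 8 each). The difference, averaged over trauma status, was -1.41 (exact permutation test within trauma status, two-sided, p = 0.00286, where 0.000408 is the smallest p possible). Odam was thus lower relative to the summed basal genes, and no ratio to the surface layer genes was computed. Over the list without keratins it was -1.31 (exact permutation p = 0.00612). With the mean log2 CPM of the list in place of the sum the difference was -0.79 and did not pass (exact permutation p = 0.078). Amtn on the same measure went the other way without passing, at 1.23 (exact permutation p = 0.156).

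**Figure D3:**
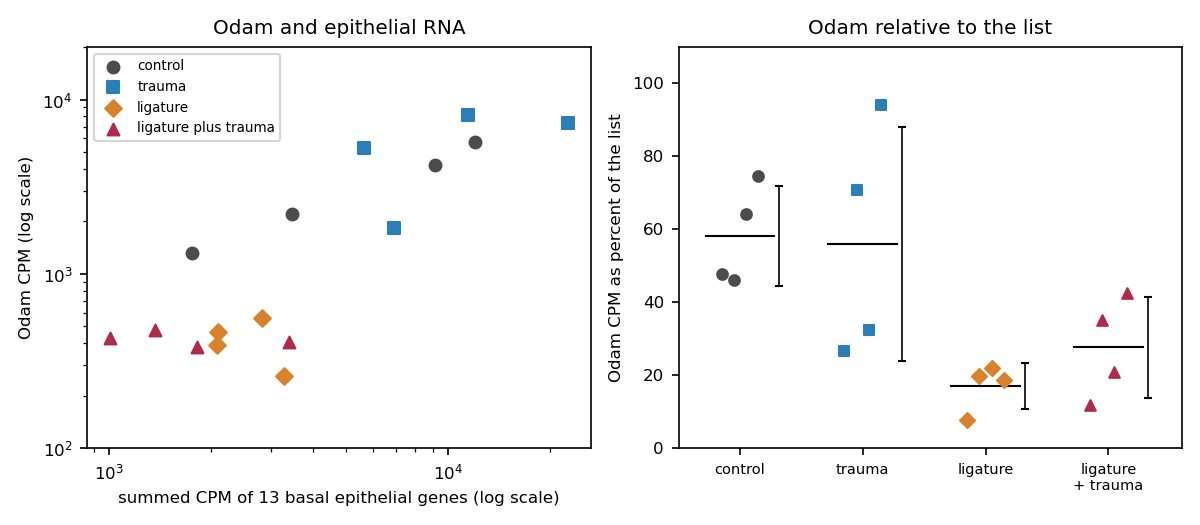
Left, Odam CPM against the summed CPM of 13 basal epithelial genes in each of 16 libraries, on log axes. Right, Odam as a percent of that sum by group, with points for libraries, lines for means and bars for the SD. Ligature libraries lie at 7.90% to 22.1% and control libraries at 46.2% to 74.7%, while trauma and ligature plus trauma overlap.

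Amtn, the other attachment gene, did not follow Odam. Control libraries 1 to 4 were at 7.79, 8.50, 27.9 and 25.0 CPM, and trauma libraries 1 to 4 at 10.6, 16.5, 8.31 and 29.4 CPM. Ligature libraries 1 to 4 were at 3.69, 16.6, 6.46 and 9.44 CPM, and ligature plus trauma libraries 1 to 4 at 7.33, 15.02, 20.2 and 10.8 CPM. All 4 groups overlapped. Means were 17.3 ± 10.6 CPM in control, 16.2 ± 9.43 in trauma, 9.05 ± 5.55 in ligature and 13.3 ± 5.55 in ligature plus trauma (SD, n = 4). Against control, ligature plus trauma was at -0.38 on the log2 scale (edgeR adjusted p = 0.673), and against trauma at -0.28 (0.842). The average ligature effect was -0.61 ± 0.38 with an interval from -1.40 to 0.19 (edgeR adjusted p = 0.261). The controls fell into a low and a high pair for Amtn, and the order was turned around for Odam: controls 1 and 2 were high in Odam and low in Amtn, controls 3 and 4 the reverse.

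Ambn, the ameloblastin gene, was read in every library. Control libraries 1 to 4 were at 59.2, 122.8, 275.5 and 359.8 CPM, and trauma libraries 1 to 4 at 116.1, 213.3, 54.5 and 197.6 CPM. Ligature libraries 1 to 4 were at 33.0, 12.9, 34.9 and 83.7 CPM, and ligature plus trauma libraries 1 to 4 at 40.6, 72.0, 99.6 and 125.8 CPM. Ligature 4 lay above control 1, so the ranges overlapped. The average ligature effect was -1.55 ± 0.43 (edgeR adjusted p = 0.0169), from 174.9 ± 107.1 to 62.8 ± 38.7 CPM (SD, n = 8). That call was lost in the 13 libraries without a shift to short transcripts (-1.42, edgeR adjusted p = 0.083) and with each library's length slope as a covariate (-1.30, 0.0684), with folds close to the value over 16 libraries. The call in ligature against control was lost in the 13 libraries (-2.04, edgeR adjusted p = 0.0816) and in a fit of those groups alone (-2.33, 0.0605). It was also lost without control 3 (0.0594), control 4 (0.0801), ligature 1 (0.0723), ligature 2 (0.0613) or ligature 3 (0.0586). In ligature plus trauma against control Ambn did not pass (-1.27 ± 0.60, edgeR adjusted p = 0.16), nor in ligature plus trauma against trauma (-0.78 ± 0.59, 0.525).

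Enam, which encodes the largest protein of the enamel matrix, was counted only in libraries without a ligature. Controls 1 to 4 had 0, 202, 143 and 228 counts, and trauma libraries 1 to 4 had 30, 0, 97 and 0. All 8 libraries with a ligature had 0, as had 3 of the 8 without. Control averaged 1.95 ± 1.42 CPM, 41.4-fold above the mean of 3 counts per library in ligature and 38.5-fold above it in ligature plus trauma. These folds allow for counting error only, and zeros also occurred without a ligature, so they are no lower limit on a ligature difference. In the average ligature effect Enam passed (edgeR adjusted p = 0.0106), but not with voom (adjusted p = 0.155). It did not pass in ligature against control (edgeR adjusted p = 0.0534) or in ligature plus trauma against control (0.0505), and it did so in 4 and in 7 of the alternatives. A gene that enters the test only through the libraries where it is present is bound to look different, and no weight rests on its p. Within control the counts ran from 0 to 228.

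Amelx was counted in trauma 1, with 71 counts (0.954 CPM), and in ligature plus trauma 2, with 21 (0.391 CPM). It was at 0 in the other 14 libraries and was not tested.

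The proteases of enamel are given in turn and were not tested against each other. Klk4 was at 1.26, 0.763, 2.32 and 2.80 CPM in controls 1 to 4 and at 3.61, 4.06, 0.551 and 3.87 CPM in trauma 1 to 4. It was at 0.284, 0.449, 0.509 and 1.08 CPM in ligature 1 to 4, and at 0.193, 0, 0.750 and 1.06 CPM in ligature plus trauma 1 to 4. Libraries with a ligature were mostly lower, although trauma 3 and control 2 fell among them. Klk4 did not pass in ligature against control (-1.62 ± 0.92, edgeR adjusted p = 0.274) or in ligature plus trauma against trauma (-2.59 ± 0.95, 0.137), although DESeq2 called the latter (0.0324). The average ligature effect was -2.10 ± 0.66 (edgeR adjusted p = 0.0326). The call was lost without control 3 or 4, ligature 1, 2 or 3, trauma 1, 2 or 4 or ligature plus trauma 1 (edgeR adjusted p = 0.0529 to 0.062). It was lost also in the 13 libraries (-1.90, edgeR adjusted p = 0.0619) and with the length slope (-1.87, 0.104). Mmp20 was at 29.3, 2.37, 6.46 and 41.0 CPM in controls 1 to 4 and at 19.4, 12.3, 1.60 and 3.34 CPM in trauma 1 to 4. It was at 1.58, 0.371, 4.03 and 21.5 CPM in ligature 1 to 4, and at 7.43, 7.05, 5.37 and 14.6 CPM in ligature plus trauma 1 to 4. The groups overlapped widely, and controls 1 and 4, trauma 1 and 2 and ligature 4 stood several-fold above the rest of their groups. Its average ligature effect was -0.81 ± 0.72 with an interval from -2.34 to 0.72 (edgeR adjusted p = 0.453).

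**Figure D4:**
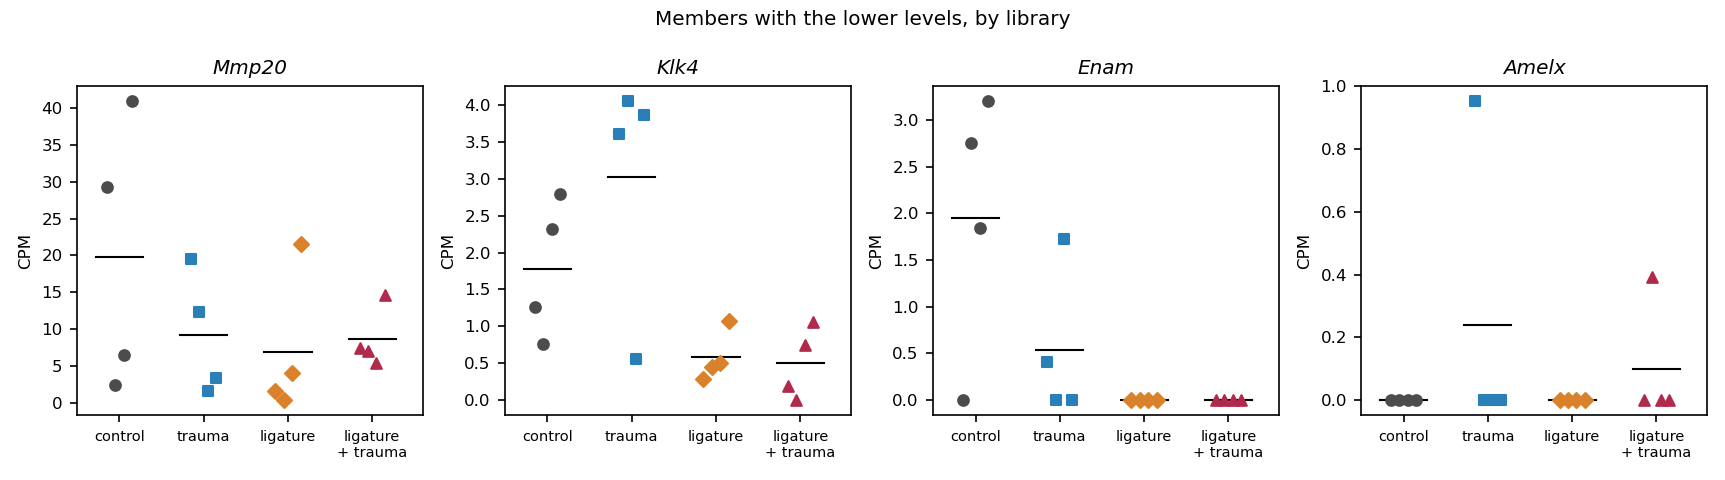
Level of Mmp20, Klk4, Enam and Amelx in each library, in CPM on linear axes, by group with 4 libraries each. Points are libraries and lines are group means. All 8 libraries with a ligature are at 0 for Enam, and Amelx is above 0 in 2 of 16 libraries.

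Within libraries of the same ligature status the members did not all run together, and the patterns differed with and without a ligature. These Pearson correlations of log2 CPM (r, with Spearman's rho) are descriptions over 8 libraries, chosen after the values were seen and given without a test. All genes of a library share its total and its mix of tissues. Without a ligature r of Odam was 0.839 with the keratin gene Krt14 but 0.351 with the integrin gene Itga6. Odam rose with Krt5 (r = 0.859, rho = 0.81), and r was 0.704 without the 2 libraries farthest from the median of Krt5. Amtn ran against Krt5 (r = -0.754, rho = -0.81, and -0.699 without those 2), and so did Ambn (r = -0.846, rho = -0.833, and -0.667 without those 2). Amtn and Ambn ran together (r = 0.881, rho = 0.786, and 0.933 without 2). Both ran with Postn, which encodes periostin, a matrix protein abundant in ligament fibroblasts and bone-lining cells (r = 0.862, rho = 0.952 and 0.931 without 2 for Amtn, and r = 0.916, rho = 0.857 and 0.789 without 2 for Ambn). With a ligature these relations were smaller or of the other sign. There r was -0.342 for Odam with Krt5 (rho = -0.381, and -0.428 without 2), -0.402 for Amtn with Krt5 (rho = -0.548, and -0.576) and -0.57 for Ambn with Krt5 (rho = -0.571, and -0.183). It was 0.214 for Amtn with Ambn (rho = 0.357, and -0.177), 0.21 for Amtn with Postn (rho = -0.119, and -0.537) and 0.304 for Ambn with Postn (rho = 0.333, and 0.371). Odam and Amtn, the 2 attachment genes, had r = -0.381 without a ligature and 0.651 with one. For Ambn with Mmp20 r was 0.285 without and 0.878 with, and for Ambn with Dmp1 it was 0.719 and 0.768. Mmp20 ran with Dspp, and it did so in both sets of 8 libraries. The values were r = 0.897 and rho = 0.857 without a ligature (0.822 without 2), and r = 0.87 and rho = 0.929 with one (0.872 without 2). Odontoblasts are known to make enamelysin as well, and which cells the Mmp20 reads came from was not tested. The other ligament gene looked at, Tnmd, did not share the pattern of Postn: without a ligature its r was -0.0749 with Amtn and -0.163 with Ambn.

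**Figure D5:**
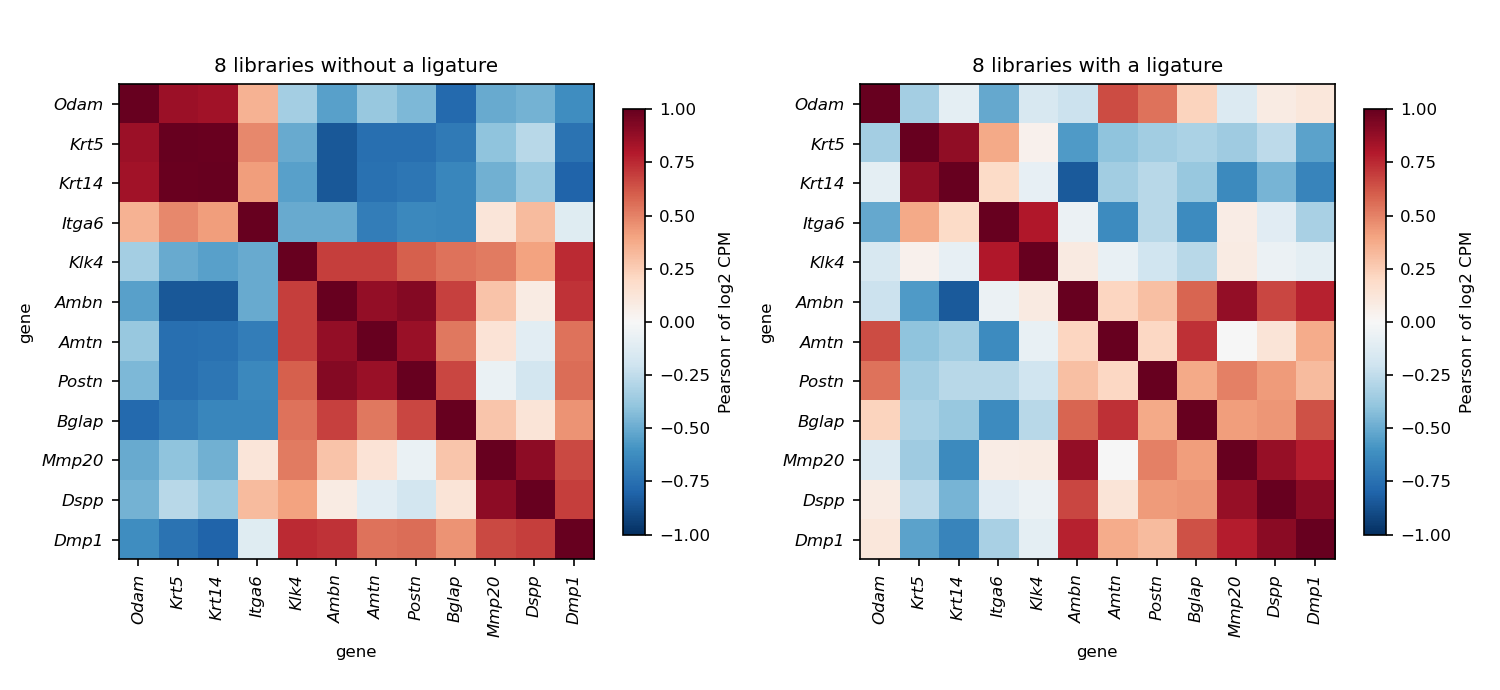
Pearson r of log2 CPM between 5 members and 7 marker genes, in the 8 libraries without (left) and the 8 with (right) a ligature. Colour runs from blue (-1) to red (1). On the left Odam groups with Krt5 (r = 0.859) and Amtn with Ambn (r = 0.881), and Mmp20 goes with Dspp on both sides (r = 0.897 and 0.87).

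The genes most alike to each member over all 16 libraries, by Pearson r of log2 CPM among 11084 genes were named for each. For Odam they were Gsta3, which encodes a glutathione transferase, at r = 0.963, and then Il1f8, Nipal2, Dynap and Il1f9, the last at 0.947. Il1f8 and Il1f9 encode cytokines made by epithelium. Over the 8 libraries with a ligature alone, Gsta3 was at r = 0.677 and the other 4 at -0.559 to -0.144. For Amtn the most alike genes were Ttc33 (r = 0.895), Thap3, Eef2, Art3 and Twist1 (0.853), the last a transcription factor of mesenchymal cells. For Ambn they were Scd1, which encodes a fatty acid desaturase (r = 0.878), Heca, Ddhd1, Thbs1, which encodes a matrix thrombospondin, and Mllt3 (0.867). For Mmp20 they were Stk39 (r = 0.954), Dtna, Trim2, Pcsk5 and Egr3 (0.908), and each kept an r of at least 0.871 within either set of 8 libraries. For Klk4 they were Zfp2 (r = 0.921), Rnf169, Zcchc8, Zfp937 and Ankrd26 (0.851). For Enam, which had counts in 5 libraries only, they were Tmem45a (r = 0.889), Elovl4, Cd74, Samd5 and Shox2 (0.801).

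Most genes of the hemidesmosomes and basal lamina, the structure that Odam borders, had lower RNA levels with the ligature. Of 9 genes tested, 5 fell and 0 rose in the average ligature effect (median log2 fold change -1.27). Of all tested genes 10.7% passed as lower and 10.8% as higher there. Col17a1, the transmembrane collagen of hemidesmosomes, fell by 1.84 ± 0.30 on the log2 scale in that average (edgeR adjusted p = 0.000568). Its group means were 92.4 ± 54.6 CPM in control, 87.3 ± 32.8 in trauma, 31.2 ± 7.56 in ligature and 20.2 ± 10.8 in ligature plus trauma (SD, n = 4). It was the 1 gene of the 9 that passed in ligature against control too (-1.57 ± 0.42, edgeR adjusted p = 0.0272), where 4.78% of all tested genes passed as lower. Itgb4 (-1.63 ± 0.36) and Itga6 (-1.27 ± 0.36), the chains of the hemidesmosome integrin, fell. So did Lama3 (-1.70 ± 0.41) and Lamb3 (-1.56 ± 0.42), which encode laminin chains. In ligature plus trauma against control the same 5 genes passed, by -2.33 (Itgb4) to -2.19 (Itga6 and Col17a1), and against trauma Col17a1 alone did. The shares of all tested genes that passed as lower were 5.62% against control and 3.27% against trauma. Basal epithelium genes fell beside them, as given above, and their part in these changes was not tested.

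Of 16 other genes needed for sound enamel in mouse or human, 15 were tested, and Acp4 had 0 counts in every library. In the average ligature effect 7 fell and 2 rose (median -0.86), where 10.7% of all tested genes passed as lower and 10.8% as higher. Those that fell were the bicarbonate transporter Slc4a4 (-2.05 ± 0.37), the calcium sensor Stim1 (-0.93 ± 0.16), the epithelial integrin chain Itgb6 (-2.42 ± 0.57), Wdr72 (-2.23 ± 0.58), Fam83h (-1.68 ± 0.45), the calcium exchanger Slc24a4 (-2.35 ± 0.71) and Fam20c (-0.86 ± 0.28), the kinase that phosphorylates SCPP proteins. Their edgeR adjusted p ranged from 0.00101 to 0.04. The calcium channel Orai1 rose by 0.75 ± 0.18 (edgeR adjusted p = 0.00894). In ligature against control Slc4a4 (-2.58 ± 0.53, edgeR adjusted p = 0.00595) and Stim1 (-0.99 ± 0.23, 0.014) fell. Stim1 and Orai1, partners in calcium entry, moved in opposite directions. Many of these genes are also expressed outside epithelium, and which cells the reads came from was not tested.

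Unlike Odam, 0 of the other SCPP genes tested passed as lower in the average ligature effect, which does not show that they stayed level. Of the 5 bone and dentin members, 2 had a negative log2 fold change there. Of 5 bone and dentin members, 0 fell and 1 rose in the average ligature effect (median 0.30), where 10.7% of all tested genes passed as lower and 10.8% as higher. Spp1, the osteopontin gene, rose by 0.68 ± 0.24 (edgeR adjusted p = 0.0492), Dspp was at -1.29 ± 0.79 (0.261), Ibsp at 0.30 ± 0.21 and Dmp1 at 0.42 ± 0.34. Of 7 milk and salivary genes listed, 3 passed the expression filter, and of these the casein genes Csn1s1 and Csn3 passed in no comparison. Smr3a, a salivary gene, had 378 counts over the 4 trauma libraries and 0 over ligature plus trauma, and passed between them (edgeR adjusted p = 0.0401). In trauma it ranged from 0.148 to 5.40 CPM with a median of 0.226, so 1 library held most of those counts, and it was at 0 in all controls. Like Enam it entered the test only through groups where it was present, and no weight rests on its p. Genes of other tissues also passed in the average ligature effect, to be read beside the same shares of all tested genes (10.7% lower, 10.8% higher). Of 7 ligament fibroblast genes 3 fell and 1 rose, of 7 osteoblast genes 5 fell and 0 rose, of 7 muscle genes 2 rose and 0 fell, and of 5 neutrophil genes 3 rose and 0 fell. Their part in the members' values was not tested.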

How the data were processed

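The authors deposited 1 table of raw whole-number counts for 55359 genes, with a column for each of 16 libraries of poly(A) RNA. Build GRCm39 and the tools DESeq2 1.32.0, StringTie 2.1.7, HISAT2 2.2.1, FastQC 0.11.9 and Trimmomatic 0.39 are named, without roles, per the submitters' processing notes. What counted the reads, with which annotation and strand setting, is not given in the sources used here, so reads of overlapping genes cannot be told apart. Symbols were matched for 52083 identifiers, and the rest held 0.205% of counts.

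Counts were tested with edgeR 4.0.16 in R 4.3.3: trimmed-mean scaling, the expression filter with a minimum count of 10 by group, 1 quasi-likelihood fit of the 4 groups with 12 residual degrees of freedom, and Benjamini-Hochberg adjustment over 20953 genes (threshold 0.05). CPM used the scaled totals. Log2 CPM for correlations had 1 count added at the mean library size. Transcript lengths came from GENCODE on GRCm38. Promoter sequences are RefSeq's, on GRCm38.p6. Scripts were tested on simulated data. SE is the log2 fold change divided by the root of F. A count of 0 was bounded by 3 counts per library, which covers counting error only.

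The members and all gene lists were chosen with earlier results of these data known. All 7 members are named. From each further list up to 4 genes with the lowest p in the average ligature effect are named, and any that passed, except that single results of some listed genes are not reported here. Likeness was ranked among genes with a mean log2 CPM of at least 2, without predicted genes. Muc10 and Plap1 matched no symbol. Alternatives were DESeq2 1.42.0, its size factors in edgeR, other filters (none, or 50 counts in 4 libraries), only the compared groups, the replicate block, limma 3.58.1 voom with sample weights, 13 libraries, a length covariate, and each library left out. The highest correlation of log2 CPM between libraries was 0.968, so none was counted as a repeat.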

Additional observations from a re-analysis of the deposited data

Results flagged for a closer look

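In groups of 4 libraries, a library was singled out when its gap to the nearest other, divided by the range of the group, was above Dixon's 95% critical value. Of 32 groups looked at, 5 had such a library. Groups of Amelx with a single library above 0 were bound to be singled out, and the ratios reuse the same libraries. The number is therefore not set against chance. Klk4 was at 0.551 CPM in trauma 3, against 3.61 to 4.06 CPM in the other trauma libraries. Trauma 3 also had the highest summed CPM of basal epithelial genes (22550), and its part in the Klk4 value was not tested. Amelx was at 0.954 CPM in trauma 1 and at 0.391 CPM in ligature plus trauma 2, with the other 3 libraries of each group at 0. The log2 ratio of Odam to the summed basal epithelial genes was -3.66 in ligature 1, against -2.42 to -2.18 in ligature 2 to 4. That of Amtn was -8.86 in ligature plus trauma 1, against -6.54 to -6.49 in the other 3.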

How the results depend on the processing

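Odam kept its direction and call in every alternative for the 4 comparisons of a ligature with none. Its ratio to epithelial genes lost its call with the mean log2 CPM of the list (-0.79), and leaving out single libraries gave -1.56 to -1.24. The number of members passing in ligature against control was 2, and 1 in the 13 libraries and with only the compared groups. In ligature plus trauma against control it was 1, and 2 with DESeq2 and with the stricter filter, where Enam was the member gained. In ligature plus trauma against trauma it was 1, and 2 with DESeq2. In the average ligature effect it was 4, with Enam, which was at 0 in every library with a ligature, among them, and 2 in the 13 libraries and with the length covariate. Those 2 were Odam and Enam, and no weight rests on the calls of Enam. Leaving out single libraries gave 1 to 3 in ligature against control and 1 to 2 in ligature plus trauma against control, where any member gained was Enam. The replicate numbers do not pair the libraries (deviations of same-numbered libraries correlated at -0.512 to 0.543, and 5 of 16 were most alike to their own number). With the replicate block Odam was at -3.02 in ligature against control, and the numbers of members passing were 2, 0, 1, 0, 1, 0 and 4, as without it.

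Counts of all genes passing moved by over 1.5 times: 2234 in ligature against control became 3698 with DESeq2 and 1369 with only the compared groups, and 1430 to 1449 without control 1, control 2 or ligature 1. The 2609 of ligature plus trauma against control ranged from 743 (13 libraries) to 4332 (without ligature 2). The 1149 of ligature plus trauma against trauma ranged from 403 (13 libraries) to 2096 (DESeq2), and the 4515 of the average ligature effect became 2991 in the 13 libraries. In trauma against control 1 became 0 without control 4 and 114 with DESeq2. Counts were lowest for Amelx, Enam and Klk4, at 92, 700 and 1655 in all. Enam ran from 0 to 228 counts within control, where depth was 68946101 to 77468584 counts per library.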
